A study of Arabidopsis thaliana with 19 samples.

Results

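The genes at the top of chromosome 1 of *Arabidopsis thaliana*, from AT1G01010 to AT1G05575 in the order of their AGI codes, were followed in 24-h imbibed dormant seeds of 5 genotypes. The interval was taken as the stretch in which NILDOG2 differed from L*er*, and 13 genes were left out by name, of which 12 were measured. The remaining members were 379 of the 21313 genes in the table and of the 5512 measured on chromosome 1. RefSeq lists 485 protein-coding loci between the same end points, so that the members are the part of the interval that the array read. All 379 were found in RefSeq by locus tag, and 176 of them have a symbol other than the AGI code. Since the difference between NILDOG2 and L*er* chose the interval, its values are given below as a description, without a test. The comparisons of NILDOG1, NILDOG3 and NILDOG6 with L*er* were not used for the choice and were tested, although they share the L*er* arrays with it.

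Seeds of the accession L*er* (5 arrays) and of the near isogenic lines NILDOG1 (5 arrays), NILDOG2, NILDOG3 and NILDOG6 (3 arrays each) were hybridized to the ATH1 GeneChip, on which a set of short probes reads each gene. NILDOG1, NILDOG2 and NILDOG3 carry DNA from the accession Cvi, and NILDOG6 from Kas-2, in a background that is otherwise L*er*. Each locus is represented by 1 line, and whether a line holds more than 1 introgressed stretch was not analysed here. All seeds were freshly harvested and dormant, were imbibed in water for 24 h, and were bulks of 8 plants, so that no value belongs to a single plant. By the study's germination tests NILDOG2 was the less dormant line and the other 3 were more dormant than L*er*. The methods and titles name imbibed seeds, whereas the label on extraction speaks of dry seeds. Nothing in the labels settles whether replicates 4 and 5 of L*er* and NILDOG1 come from the same sowing as the others, and p-values measure the spread between these arrays, which may be partly technical.

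A near isogenic line holds donor alleles over one continuous stretch, and every gene in that stretch is replaced together, whether or not it has to do with the trait for which the stretch was chosen. The *DELAY OF GERMINATION* loci were found as natural variation in how long a fresh seed stays dormant, and lines that differ at them reach germination after different times of dry storage. Genes within an introgressed stretch can differ in transcript level because the donor allele is transcribed or degraded differently. The ATH1 probes were designed on the reference accession, so a base that differs between donor and L*er* under a probe can also alter the value. Without the sequences of the alleles, these cannot be told apart for differences within an introgressed stretch. Whether NILDOG1, NILDOG3 or NILDOG6 hold donor DNA in the interval was not analysed here. In whole seeds, fewer cells of a type and less RNA per cell cannot be told apart for any difference below.

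The 29 pairs of arrays of one genotype correlated with r from 0.978 to 0.993 across all genes. The array labelled NILDOG6 replicate 1 stood apart, with r of 0.98 and 0.978 with NILDOG6 replicates 2 and 3. Its median r with the L*er* arrays was 0.988. Most counts and calls of NILDOG6 are therefore given with and without this array. The seed identity of the samples was checked with 5 genes of storage and late maturation (SESA1, CRA1, OLEO1, EM1 and GEA6), which lay between 12.07 and 14.35 on the log2 scale in every array. Of 2 pollen markers 1 was measured, AT5G45880, at 3.57 to 4.25, and the leaf markers were not analysed here.

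RMA levels of the members spanned nearly the whole range of the array. Levels of different genes come from different probes and do not rank their transcripts. The mean log2 level in L*er* ran from 2.44 to 13.61 with a median of 5.41, against a median of 4.80 over all genes. The highest value was that of AT1G04560, at 13.46, 13.68, 13.63, 13.62 and 13.67 in the L*er* arrays and at 13.64, 13.54 and 13.60 in the NILDOG2 arrays. AT1G01100, RPS15 (AT1G04270), which encodes a protein of the small ribosomal subunit, the oil body-associated OBAP1a (AT1G05510) and AT1G04480 followed, with L*er* means of 12.59, 12.33, 12.30 and 11.69. Below the lower quartile of all genes lay 70 members, and above the upper quartile lay 107.

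In NILDOG2 a few members differed strongly from L*er* and most did not. At the threshold of the study, an adjusted p under 1e-04 in limma, 6 of the 379 members were called, against 0.0657% of all genes. Of these, 2 were higher and 4 lower in NILDOG2, against 0.0188% and 0.0469% of all genes. At the looser threshold of 0.05, 16 members were called, against 0.305% of all genes, 7 higher and 9 lower, against 0.141% and 0.164%. An unadjusted p under 0.05 was found for 75 members, against 6.78% of all genes. These shares follow from how the interval was chosen. The 3 NILDOG2 values lay wholly outside the 5 L*er* values in 61 members, or 16.1%, against 5.41% of all genes, with 24 above and 37 below, against 2.54% and 2.87%. The difference exceeded 1 on the log2 scale in 8 members, against 0.328% of all genes, and was at most 0.5 in 339, or 89.4% of the members and 97.1% of all genes. The median absolute log2 difference was 0.14 over the members and 0.11 over all genes.

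AT1G03710 had by far the largest difference of the interval. Its log2 level was 3.22, 2.97, 3.00, 2.83 and 3.19 in L*er* and 6.95, 7.38 and 7.03 in NILDOG2, a log2 difference of 4.08 ± 0.21 (SE). The L*er* mean of 3.04 lay under the lower quartile of all genes (3.16), and the table holds no detection call, so no fold is given. In NILDOG1 the gene was read at 2.72 to 3.81, in NILDOG3 at 2.92 to 3.38 and in NILDOG6 at 2.79 to 3.73, so that no array outside NILDOG2 came near its NILDOG2 level. AT1G03700 and AT1G03720, the measured genes on either side, differed by -0.06 ± 0.16 and -0.11 ± 0.16 in NILDOG2.

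AT1G02750 had the largest difference on the lower side. It was read at 7.30, 7.63, 7.91, 7.25 and 7.38 in L*er* and at 5.34, 5.20 and 4.95 in NILDOG2, a log2 difference of -2.33 ± 0.25. All NILDOG2 arrays lay below all other arrays, the lowest of which was NILDOG6 replicate 3 at 6.79. The gene before it, AT1G02740, known as MRG2, a reader of histone methylation, also had its NILDOG2 values (6.49, 6.54 and 6.18) below those of L*er* (6.67 to 7.16), with a difference of -0.53.

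SCAMP4 (AT1G03550) encodes a secretory carrier membrane protein of vesicle traffic. It was read at 5.77, 6.01, 5.57, 5.61 and 6.27 in L*er* and at 4.24, 4.39 and 4.42 in NILDOG2, a log2 difference of -1.50 ± 0.15. In NILDOG6 it was read at 6.60, 6.43 and 6.59, above every L*er* array, with a difference of 0.69 ± 0.15 (limma, adjusted p = 0.0276, and 0.0283 without replicate 1). It was the only member called in NILDOG2 that passed the looser threshold in another line, where its sign was opposite.

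The other 3 members called were unnamed genes. AT1G02260 was read at 7.20, 7.01, 7.01, 6.49 and 7.01 in L*er* and at 5.69, 5.57 and 5.53 in NILDOG2, a difference of -1.35 ± 0.15. AT1G01800 was read at 9.64, 9.60, 9.61, 9.79 and 9.78 in L*er* and at 8.54, 8.46 and 8.38 in NILDOG2, a difference of -1.22 ± 0.10. Its SD was 0.09 in L*er* and 0.08 in NILDOG2. AT1G05575, the last gene of the interval, was read at 2.52, 2.85, 3.16, 3.40 and 3.09 in L*er* and at 4.35, 4.31 and 4.67 in NILDOG2, a difference of 1.44 ± 0.17. Its L*er* mean of 3.01 also lay under the lower quartile of all genes (3.16).

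The number of called members depended on single arrays. It was 2 without any one of the NILDOG2 arrays and 3 without L*er* replicate 3 or 5. Without L*er* replicate 2 it was 4, of which 3 were among the 6 described above. The shares of all genes in these fits are not given. The log2 differences themselves moved little when arrays were left out in turn, from 3.95 to 4.16 in AT1G03710, from -2.42 to -2.22 in AT1G02750, from -1.57 to -1.39 in SCAMP4, from -1.46 to -1.28 in AT1G02260, from -1.26 to -1.18 in AT1G01800 and from 1.32 to 1.54 in AT1G05575.

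**Figure D1:**
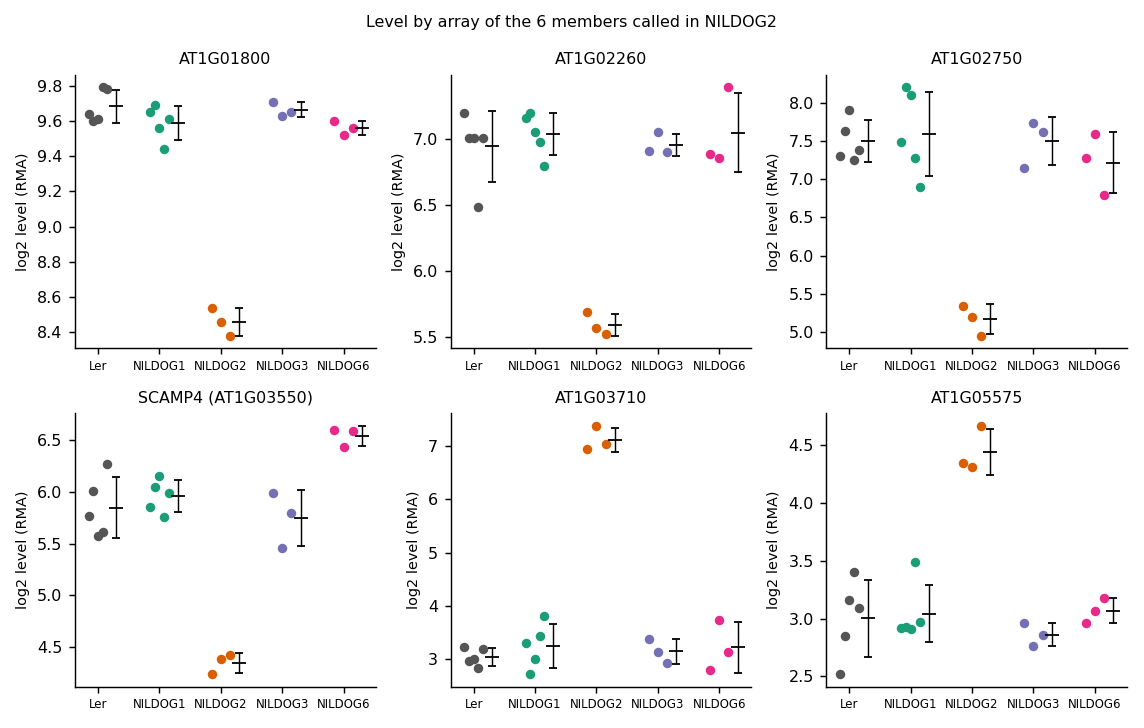
RMA log2 level of the 6 members called in NILDOG2, 1 panel per gene, with 1 point per array and the mean ± SD beside each genotype (L*er* and NILDOG1 n = 5, the other lines n = 3). Each vertical axis has its own range. The NILDOG2 points lie apart from all other arrays in each panel, highest in AT1G03710 (6.95 to 7.38) and AT1G05575 (4.31 to 4.67) and lowest in the other 4 genes.

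In the other 3 lines these 6 genes lay close to L*er*. Their log2 differences ran from -0.09 to 0.21 in NILDOG1, from -0.15 to 0.10 in NILDOG3 and from -0.28 to 0.69 in NILDOG6, where SCAMP4 gave the upper end. Over the 16 members past the looser threshold in NILDOG2, the median absolute difference was 1.11 in NILDOG2, 0.11 in NILDOG1, 0.14 in NILDOG3 and 0.15 in NILDOG6. Besides SCAMP4, 1 of these 16 passed the looser threshold in another line. It was AT1G01640 in NILDOG3, described below.

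Beyond the called genes, the largest differences on the higher side without overlap were those of AT1G02060 and ABCI19 (AT1G03905). AT1G02060 was read at 5.35, 5.83, 5.41, 4.97 and 4.27 in L*er* and at 6.97, 6.76 and 6.89 in NILDOG2, a difference of 1.70 ± 0.25. Its L*er* arrays spread over more than 1 unit, with replicate 5 lowest. ABCI19, of the ABC transporter family, was read at 5.24, 5.76, 5.40, 5.16 and 5.44 in L*er* and at 6.76, 6.65 and 6.93 in NILDOG2, a difference of 1.38 ± 0.17. UGT72B3 (AT1G01420), a glucosyltransferase that transfers sugar to small molecules, was read at 3.09 to 3.74 in L*er* (median 3.21) and at 4.28, 4.03 and 4.62 in NILDOG2, a difference of 0.99 ± 0.16. AT1G01230 (0.93 ± 0.20), the non-coding retrotransposon Sadhu4-2 (AT1G03420, 0.92 ± 0.21) and AT1G04780 (0.76 ± 0.14) completed the 8 largest on the higher side, with GAE2 (AT1G02000), an epimerase that makes a sugar precursor of pectin, next at 0.75 ± 0.13.

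On the lower side the 4 called genes were followed by AT1G04430 (-0.98 ± 0.30), AT1G01170 (-0.94 ± 0.17), CYP86A4 and LAP6. CYP86A4 (AT1G01600), a cytochrome P450 that hydroxylates fatty acids for cutin, was read at 6.08, 6.36, 6.74, 6.02 and 6.21 in L*er* and at 5.13, 5.25 and 5.75 in NILDOG2, a difference of -0.91 ± 0.21. LAP6 (AT1G02050), a polyketide synthase known from the outer wall of pollen, was read at 5.59, 5.84, 5.50, 5.20 and 5.67 in L*er* and at 4.51, 4.58 and 4.91 in NILDOG2, a difference of -0.90 ± 0.17. AT1G01170 was read at 11.30 to 11.92 in L*er* and at 10.47 to 10.91 in NILDOG2. AT1G04430 was the least reproducible of these, with values of 4.20, 5.00 and 5.14 in NILDOG2 and 5.24 to 6.27 in L*er*.

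The called genes were scattered along the interval. Successive members of the 6 called lay 11 to 167 positions apart in the order of measured genes, and none was next to another. Of the 61 members without overlap, 11 directly followed another, and the median step between them was 5 genes. Over the 390 pairs of neighbouring measured genes in the interval, the NILDOG2 differences had a Pearson's r of 0.01 and a Spearman's rho of -0.01, as a description across genes that share the same arrays. Of the measured neighbours of the called genes, PEX11C (AT1G01820), which acts in peroxisome division, had NILDOG2 values of 8.26, 8.12 and 8.14, below the L*er* range of 8.48 to 8.99. The potassium antiporter KEA1 (AT1G01790), NAC005 (AT1G02250), AT1G03540 and AT1G03560 differed by 0.03, -0.09, 0.09 and 0.20, and their values overlapped with L*er*. AT1G02270, after AT1G02260, differed by -0.47 ± 0.15, with 6.36, 5.99 and 5.74 in NILDOG2 against 6.35 to 6.69 in L*er*. AT1G02780, a gene left out by name that follows AT1G02750, was read at 13.32, 13.42 and 13.23 in NILDOG2 and at 12.84 to 13.10 in L*er*, so that AT1G02740, AT1G02750 and AT1G02780 were 3 successive measured genes without overlap. CALS1 (AT1G05570), a callose synthase just before AT1G05575, differed by 0.34 and overlapped as well.

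By AGI block, the share of members without overlap was 17.1% in AT1G01, 16% in AT1G02, 13.4% in AT1G03, 16.5% in AT1G04 and 18.4% in AT1G05, with 1, 2, 2, 0 and 1 called members. AT1G04 held 91 members and no called one, although 15 of them did not overlap with L*er*.

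The first member, the transcription factor NAC001 (AT1G01010), differed by -0.09 ± 0.21 in NILDOG2, and the last, AT1G05575, was a called one. AT1G05577, HEXO2 (AT1G05590), a hexosaminidase, and EMB3101 (AT1G05600) are the first measured genes outside. AT1G05577 was read at 2.78, 3.04 and 3.18 in NILDOG2 and at 2.70 to 3.15 in L*er*, HEXO2 at 4.07 to 4.18 and 3.59 to 4.18, and EMB3101 at 7.35 to 7.50 and 7.32 to 7.83, so that all 3 overlapped with L*er*. The end at AT1G05575 was nevertheless not where the NILDOG2 differences stopped. Cutting the measured genes of chromosome 1 into successive stretches of 391, the number in the interval with the left-out genes included, gave 16.1% of genes without overlap in the first stretch, 12.3% and 13% in the next ones (AT1G05577 to AT1G10350 and AT1G10360 to AT1G14990), and 3.58% and 3.84% in the 2 after these, which reach AT1G24625. Called genes numbered 6, 1, 4, 0 and 0, and genes past the looser threshold 16, 14, 14, 0 and 0. The last of these was AT1G14150, and 6 more genes past the looser threshold lay further along chromosome 1. Of all 65 genes past the looser threshold in NILDOG2, 44 lay in these first 3 stretches of 1173 genes, and 11 of the 14 called genes did. The interval was thus the beginning of a longer run of differing genes, and the marker positions of the introgression were not analysed here.

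**Figure D2:**
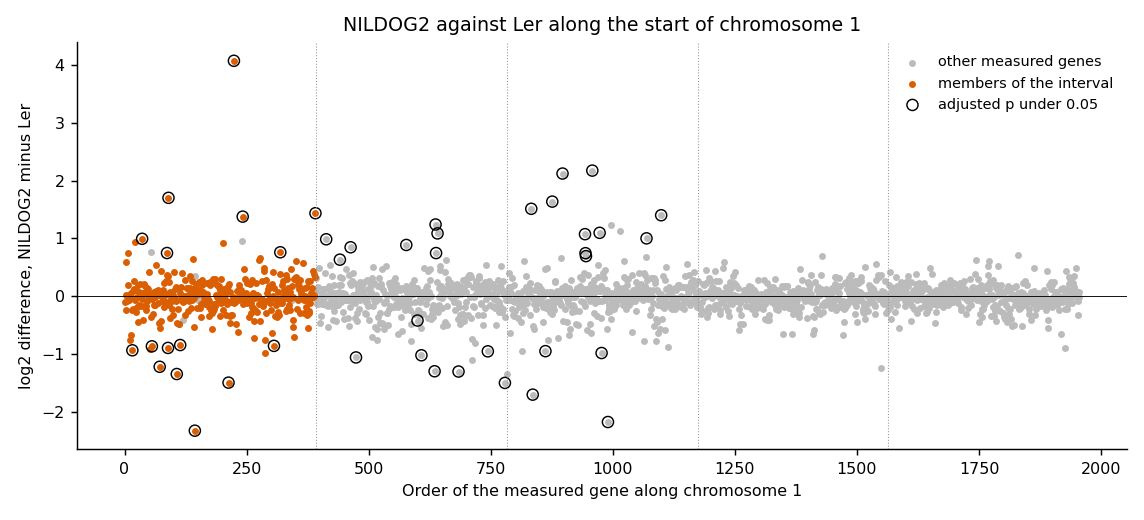
Log2 difference between NILDOG2 and L*er* for the first 5 stretches of 391 measured genes of chromosome 1 in gene order, with the members in orange, other genes in grey, circles for an adjusted p under 0.05 and dotted lines between stretches. Circled genes number 16, 14 and 14 in the first 3 stretches and 0 in the 2 after these.

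Among members with known functions, most differed little in NILDOG2. Of 10 lists by function, only the UDP-glycosyltransferases held a member past the looser threshold in NILDOG2, UGT72B3, which is 1 of 4. SCAMP4 is not on the list of membrane traffic, so that this list does not count a called gene of that function. UGT75B1 (AT1G05560) differed by 0.39, and UGT75B2 and AT1G01390 by -0.01 and 0.06. Since these members belong to the interval chosen on this contrast, the counts of the lists in NILDOG2 are a description.

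Plastid and photosynthesis genes were the list with the most members apart from L*er* in NILDOG2. Of 11 measured of 12, 8 were lower and 3 higher, with a median of -0.22 against 0.00 over all genes. Below L*er* without overlap were 4, against 2.87% of all genes and 9.76% of the members. Above it was 1, against 2.54% and 6.33%. Lack of overlap in NILDOG2 went with level, in 45 of the 189 members with the higher mean levels and 16 of the other 190. The list had a median L*er* level of 6.22, against 5.41 for the members. PSB27 (AT1G03600), a photosystem II assembly factor, was read at 10.32, 10.07, 10.13, 10.11 and 10.00 in L*er* and at 9.63, 9.63 and 9.74 in NILDOG2. LIN2 (AT1G03475), an enzyme of tetrapyrrole synthesis, the thioredoxin THM1 (AT1G03680) and LPA19 (AT1G05385), also of photosystem II assembly, differed by -0.32, -0.33 and -0.32. HCAR (AT1G04620), a reductase of the chlorophyll cycle, was higher, at 6.25, 6.21 and 6.33 against 5.77 to 6.05 in L*er*. The list had medians of 0.05 in NILDOG1, -0.16 in NILDOG3 and -0.18 in NILDOG6, with no member past the looser threshold in these lines, nor in NILDOG6 without replicate 1.

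Regulators of hormone response, light and germination overlapped with L*er* in all 11 measured members in NILDOG2. SOM (AT1G03790), a zinc finger protein that represses light-dependent germination, was read at 9.76, 10.49, 9.83, 9.20 and 9.07 in L*er* and at 9.10, 9.00 and 9.07 in NILDOG2, a difference of -0.62. The NILDOG2 arrays lay at the lower edge of the L*er* range. CRY2 (AT1G04400), a blue light receptor, was read at 7.94, 8.12 and 8.25 in NILDOG2 and at 7.31 to 7.99 in L*er*, a difference of 0.49. In the other lines the list held 0 members past the looser threshold, and its median was 0.20 in NILDOG1, 0.16 in NILDOG3 and -0.01 in NILDOG6.

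Auxin genes differed from L*er* by -0.29 to 0.22 in NILDOG2 over 7 members. IAA10 (AT1G04100), a repressor of auxin response, was read at 5.29, 5.26 and 5.21 in NILDOG2, just below the lowest L*er* array at 5.31. In NILDOG3 it was read at 5.98, 6.58 and 5.77 and in NILDOG6 at 5.77, 6.08 and 6.23, both above the highest L*er* array at 5.73, without passing the looser threshold, except in NILDOG6 without replicate 1 (0.61, adjusted p = 0.0369). The 5 measured NAC transcription factors of 7 differed by -0.09 to 0.15 in NILDOG2, and the 2 measured glutathione S-transferases of 4 by 0.01 and 0.07.

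In the list of chromatin and small RNA genes, DCL1 (AT1G01040), the enzyme that cuts microRNA precursors, was read at 6.87, 7.08, 6.38, 6.42 and 7.03 in L*er* and at 7.17, 7.42 and 7.46 in NILDOG2, a difference of 0.59 ± 0.19. Its NILDOG6 values of 7.31, 7.11 and 7.40 also lay above L*er*, with a difference of 0.51 (limma, adjusted p = 0.141, and 0.169 without replicate 1). The other 10 measured members of this list overlapped with L*er* in NILDOG2. Of 8 measured membrane traffic genes, 1 lay above L*er* in NILDOG2 and VAMP721 (AT1G04750), a vesicle fusion protein, lay below it, at 8.51, 8.70 and 8.59 against 8.71 to 9.23. Of 12 genes of wax, cutin, fatty acids and peroxisomes, CYP86A4 and PEX11C were below L*er* without overlap, and the median was 0.02. Neither list, SCAMP4 not being on the former, had a member past the looser threshold in NILDOG1, NILDOG3 or NILDOG6, and 1 lipid gene, OBAP1a, passed it in NILDOG6 without replicate 1 (0.66, adjusted p = 0.0386).

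**Figure D3:**
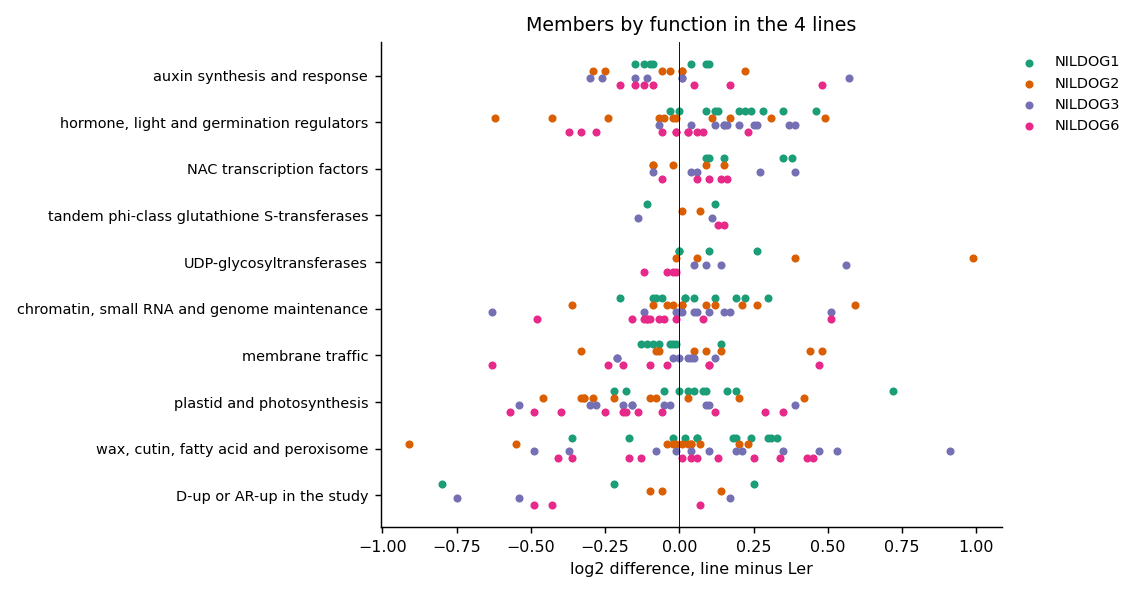
Log2 difference from L*er* of each measured member in 10 lists by function, with 1 point per gene and line and 1 row of points per line. Over all lists the points of each line lie on both sides of 0, but some lists lie wholly above or below it in a line. The NAC factors in NILDOG1, for example, have 5 points above 0 and 0 below. The NILDOG2 points run from -0.91 (CYP86A4) to 0.99 (UGT72B3).

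The lines whose contrasts did not choose the interval differed from L*er* over its members at shares near those over the whole table. No member was called in NILDOG1, NILDOG3 or NILDOG6 at an adjusted p under 1e-04, against 0.103%, 0.0704% and 0.0% of all genes, while 31, 71 and 83 members had an unadjusted p under 0.05, against 10.9%, 17.1% and 18.8% of all genes. At the looser threshold limma called 2 members in NILDOG1, against 1.17% of all genes, 9 in NILDOG3, against 2.88%, and 8 in NILDOG6, against 2.36%. Without its replicate 1, NILDOG6 had 32 members called, or 8.44%, against 8.39% of all genes, with 0 at an adjusted p under 1e-04, against 0.0985%, and 95 at an unadjusted p under 0.05, against 24.3%. Members without overlap with L*er* made up 1.85% in NILDOG1, 11.9% in NILDOG3 and 8.71% in NILDOG6, against 2.14%, 11.0% and 8.09% of all genes, and 24.0% in NILDOG6 without replicate 1, against 23.6%. A difference over 1 was found for 2, 3 and 3 members, against 0.882%, 1.8% and 1.09% of all genes. The median absolute difference was 0.11, 0.16 and 0.16, against 0.11, 0.15 and 0.16 over all genes. In NILDOG3, 6 of the 391 genes from AT1G19830 to AT1G24625, the fifth stretch tabulated, were called.

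**Figure D4:**
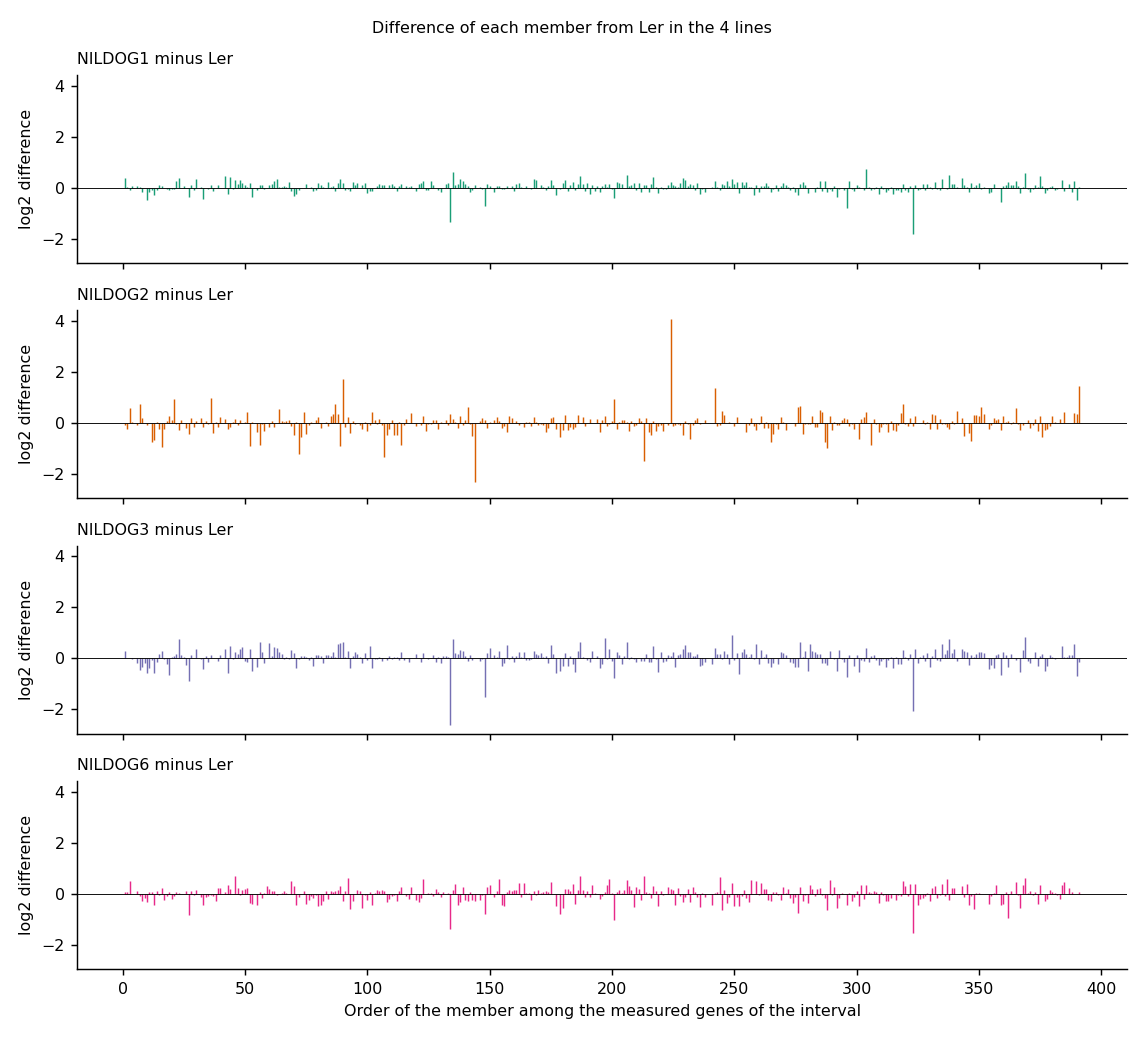
Log2 difference from L*er* of each member, in gene order, for the 4 lines on a common scale, with 1 vertical line per gene. NILDOG2 has the tall lines (up to 4.08 and down to -2.33), while NILDOG1, NILDOG3 and NILDOG6 share only downward lines beyond 1 unit at BXL2 and TUA4 and, in NILDOG3, at AT1G02810 and, in NILDOG6, at Sadhu4-2.

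The largest tested differences of the interval were decreases of TUA4, BXL2 and AT1G02810 in lines other than NILDOG2. TUA4 (AT1G04820) encodes an alpha-tubulin, a subunit of microtubules. It was read at 7.68, 5.98, 6.70, 7.37 and 6.85 in L*er*, at 5.08, 5.11, 4.57, 5.77 and 5.04 in NILDOG1 and at 5.15, 4.51 and 4.86 in NILDOG3. All arrays of NILDOG1 and NILDOG3 lay below all of L*er*, and TUA4 fell by 1.80 ± 0.41 in NILDOG1 (limma, adjusted p = 0.032) and had a log2 difference of -2.07 ± 0.47 in NILDOG3 (adjusted p = 0.0205). In NILDOG6 replicate 1 was read at 7.08, within L*er*, and replicates 2 and 3 at 4.84 and 4.24, a difference of -1.53 ± 0.47 (adjusted p = 0.086) that became -2.38 (adjusted p = 0.00117) without replicate 1. NILDOG2, at 6.34, 7.51 and 6.53, overlapped with L*er* (-0.13). Alpha-tubulins form a family of near-identical genes, and how far the probes separate them was not tested.

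BXL2 (AT1G02640) encodes a beta-xylosidase that acts on cell wall polysaccharides. It was read at 7.19, 5.61, 5.85, 7.00 and 6.15 in L*er*, at 6.51, 7.36 and 6.28 in NILDOG2 and at 4.03, 3.77 and 3.41 in NILDOG3. It fell by 2.62 ± 0.45 in NILDOG3 (limma, adjusted p = 0.00347), where all arrays lay below all others of the series. In NILDOG1 it was read at 4.85, 4.98, 4.44, 6.49 and 4.38 (-1.33 ± 0.39, adjusted p = 0.123) and in NILDOG6 at 5.81, 4.95 and 4.13 (-1.40 ± 0.45, adjusted p = 0.0945), which became -1.82 (adjusted p = 0.0258) without replicate 1.

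AT1G02810 was read at 6.01, 5.43, 5.87, 6.19 and 6.05 in L*er* and at 4.23, 4.17 and 4.76 in NILDOG3, where it fell by 1.52 ± 0.25 (limma, adjusted p = 0.00256). Its differences in NILDOG1 and NILDOG6 were -0.72 and -0.78 (adjusted p = 0.137 and 0.0952), and -1.09 in NILDOG6 without replicate 1 (adjusted p = 0.0123). PDLP2 (AT1G04520), a protein of plasmodesmata, the channels between plant cells, was read at 4.46, 3.70, 4.30, 4.61 and 3.71 in L*er* and at 3.16 to 3.57 in NILDOG1, where it fell by 0.80 ± 0.16 (adjusted p = 0.0152). It fell by 0.75 ± 0.19 in NILDOG3 (at most 3.62, adjusted p = 0.0357). In NILDOG2, at 4.20, 4.43 and 4.25, it lay within L*er*.

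The calls of TUA4 in NILDOG1 and NILDOG3 and of PDLP2 in NILDOG1 were lost when any of several arrays was left out. That of PDLP2 in NILDOG3 was not recomputed. TUA4 in NILDOG1 no longer passed the looser threshold without L*er* replicate 1, 3, 4 or 5 or without NILDOG1 replicate 1, 2, 3 or 5 (adjusted p up to 0.111), and in NILDOG3 without L*er* replicate 1 or 4 or any NILDOG3 array (up to 0.137), with differences from -2.04 to -1.61 and from -2.31 to -1.88. PDLP2 in NILDOG1 was lost without L*er* replicate 1 or 4 or NILDOG1 replicate 1 (up to 0.0622, with differences from -0.92 to -0.69). BXL2, AT1G02810 and AT1G01640 in NILDOG3 passed under all 27 alternatives, with highest adjusted p of 0.0306, 0.0336 and 0.0363.

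AT1G01640 lay on opposite sides of L*er* in NILDOG2 and NILDOG3. It was read at 6.41, 6.41, 6.87, 6.51 and 6.66 in L*er*, at 7.21, 7.12 and 7.35 in NILDOG3 and at 5.75, 5.63 and 5.74 in NILDOG2. The NILDOG3 arrays lay above all others and the NILDOG2 arrays below all others of the series. It rose by 0.65 ± 0.11 in NILDOG3 (limma, adjusted p = 0.00462), beside a difference of -0.87 ± 0.11 in NILDOG2. NILDOG1 and NILDOG6 differed by 0.12 and 0.07. PDIL2-2 (AT1G04980), of the protein disulfide isomerase family, which helps proteins fold in the endoplasmic reticulum, rose by 0.77 ± 0.17 in NILDOG3 (7.36, 6.76 and 7.10 against 5.95 to 6.68 in L*er*, adjusted p = 0.0173). This call was lost without NILDOG3 replicate 1 or 3 (adjusted p up to 0.11). AT1G04300 rose by 0.66 ± 0.15 in NILDOG3 (adjusted p = 0.0202) and had the same difference, 0.66 ± 0.15, in NILDOG2, at 8.49, 8.37 and 8.52 and at 8.38, 8.50 and 8.49 against 7.51 to 8.21 in L*er*. Its call in NILDOG3 was lost without L*er* replicate 1 or 4 or any NILDOG3 array (up to 0.0871).

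**Figure D5:**
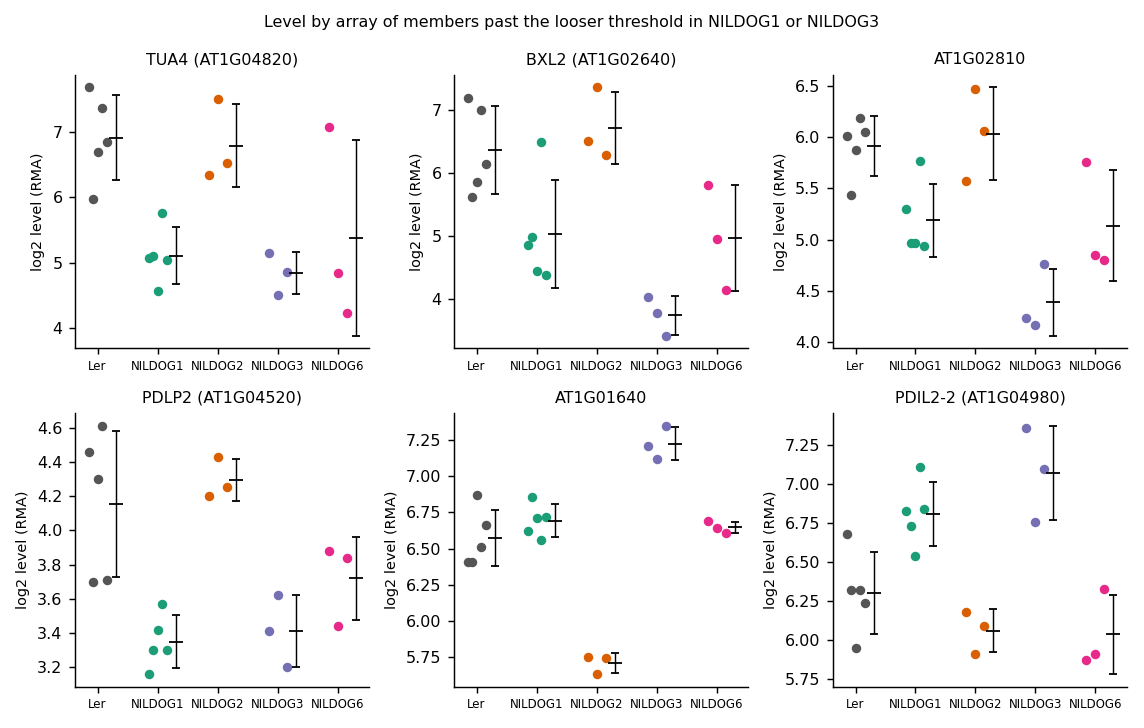
RMA log2 level of 6 members that passed the looser threshold in NILDOG1 or NILDOG3, 1 panel per gene, with 1 point per array and the mean ± SD beside each genotype (L*er* and NILDOG1 n = 5, the other lines n = 3). Each vertical axis has its own range. In TUA4 the NILDOG6 arrays split, with replicate 1 at 7.08 and the others at 4.84 and 4.24.

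In NILDOG6, Sadhu4-2 fell by 1.03 ± 0.21 (limma, adjusted p = 0.0169, and 0.00716 without replicate 1). It was read at 4.51, 4.27, 4.96, 4.78 and 3.93 in L*er*, at 3.64, 3.28 and 3.45 in NILDOG6 and at 5.31, 5.42 and 5.51 in NILDOG2, so that L*er* lay between both lines without overlap. In NILDOG3 it was read at 3.54, 3.96 and 3.71 (-0.76 ± 0.21, adjusted p = 0.0532). AT1G01300 fell by 0.84 ± 0.20 in NILDOG6 (adjusted p = 0.0354, and 0.00376 without replicate 1) and by 0.87 ± 0.20 in NILDOG3 (adjusted p = 0.0241). AT1G03250 fell by 0.41 in NILDOG6 (adjusted p = 0.0339, and 0.0505 without replicate 1), AT1G02080 rose by 0.62 (adjusted p = 0.0134, and 0.00905 without replicate 1) and AT1G03920 rose by 0.64 (adjusted p = 0.0358, and 0.0025 without replicate 1). The L*er* mean of AT1G03920, 3.0, lay under the lower quartile of all genes (3.16). In NILDOG3, AT1G03250 was read at 6.18, 6.24 and 6.25, below the L*er* range of 6.70 to 6.88, a log2 difference of -0.53 (adjusted p = 0.00589). Without NILDOG6 replicate 2, and likewise without replicate 3, 0 members passed the looser threshold in this line, and the shares of all genes in these fits are not given. The calls of SCAMP4, AT1G01300, AT1G03250 and AT1G03920 in NILDOG6 were also lost without L*er* replicate 1, 3 or 4, and that of AT1G03920 without replicate 5 (adjusted p up to 0.112, 0.209, 0.142 and 0.212 in turn over all arrays left out).

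With replicate 1 left out, NILDOG6 had 15 members higher and 17 lower at the looser threshold, against 3.05% and 5.34% of all genes. AT1G03400 had the largest increase, with at most 3.77 in L*er* and 4.79 and 4.31 in replicates 2 and 3 (1.02, limma, adjusted p = 0.00493), and replicate 1 at 3.18. AT1G03150 was read at 6.40 and 5.18 in those replicates and at 6.68 to 7.13 in L*er* (-1.14, adjusted p = 0.0115). AT1G03270 rose by 0.86 (adjusted p = 0.0206) and AT1G03920 by 0.86 (adjusted p = 0.0025). With 2 arrays left, the spread of NILDOG6 is assumed to be that of the other groups.

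Variation among L*er*, NILDOG1, NILDOG3 and NILDOG6 was tested with limma's moderated F test. No member was called, against 0.211% of all genes, and 15 passed the looser threshold, against 4.76% of all genes, while 89 had an unadjusted p under 0.05, against 20.5%. Replicates 4 and 5 of L*er* and NILDOG1 were compared with replicates 1 to 3, with genotype in the model. No member was called, against 0.0% of all genes, 54 had an unadjusted p under 0.05, against 17.6%, and 7 passed the looser threshold, against 2.15%. All 7 were lower in replicates 4 and 5 (from -1.03 to -0.54), against 1.82% of all genes lower. They included CNX3 (AT1G01290), an enzyme of molybdenum cofactor synthesis (-0.57, limma, adjusted p = 0.0118), and MAGO (AT1G02140), of the exon junction complex (-0.54, adjusted p = 0.0197). None of these 7 was among the members past the looser threshold in NILDOG2. Among the 6 called members the largest absolute difference between replicate sets was 0.57, with the smallest adjusted p at 0.118.

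The study's sets of genes raised in dormant or in after-ripened seeds of all 5 genotypes include 3 members, AT1G01240, POR C (AT1G03630), which makes chlorophyllide, and PDLP2. In NILDOG2 they differed from L*er* by -0.06, -0.10 and 0.14. AT1G01240 differed by 0.25 in NILDOG1, 0.17 in NILDOG3 and 0.07 in NILDOG6, and POR C by -0.22, -0.54 and -0.49, with none past the looser threshold, so that PDLP2 was the only one that passed it. These sets were chosen on seeds of the same genotypes and are not independent evidence of a direction.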

How the data were processed

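RNA of imbibed dormant seeds was hybridized by the authors to ATH1 arrays. The authors normalized the arrays with RMA, and the deposited table holds 1 log2 value per gene and array. The genome build behind the probe annotation is not given in the sources used here, so genes are placed by the order of their AGI codes. No values were left out.

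Members were taken by AGI code, and members and lists were chosen with earlier results of these data known. A linear model with 5 genotype means was fitted to all 21313 genes and 19 arrays in limma 3.58.1 (R 4.3.3), with empirical Bayes and Benjamini-Hochberg adjustment over all genes. The threshold of the study, an adjusted p under 1e-04, was used, with 0.05 as a looser one. A difference is the mean of a line minus that of L*er*. Values not overlapping means that all arrays of a line lie on one side of all L*er* arrays. In a simulation where a log2 change of 2 was put into 200 genes, limma recovered 94.5% of them in NILDOG2, 98.0% in NILDOG1, 91.5% in NILDOG3 and 96.0% in NILDOG6, each among 21313 genes. The simulated noise was independent between arrays, with the same spread in every genotype, and smaller changes were not simulated. These shares therefore do not hold for smaller differences or for the spread of the real arrays. Members past 0.05 in NILDOG2 had a median absolute difference of 1.11. Genes were named if called in NILDOG2, among the 8 largest rises or falls there without overlap, among the 3 largest rises or falls past 0.05 in the other lines, among the 5 highest in L*er*, at an end of the interval or beside a called gene, or on a list by function. GAE2, CNX3, MAGO and AT1G14150 were named after their values were seen. Alternatives were other thresholds, a filter below the 30th percentile of mean level, median centring, quantile normalization, a prior trend, array weights, each line with L*er* alone, replicates 1 to 3 only, a replicate block and leaving out each array. Gene names came from RefSeq. Summaries used Python 3.11.15, pandas 2.3.3, numpy 2.4.6 and matplotlib 3.10.9. The number of arrays limits the precision.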

Additional observations from a re-analysis of the deposited data

Results flagged for a closer look

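The members named for a call, a large difference or a high level in L*er* were examined for single arrays far from the rest. Of 70 groups of 5 arrays, 6 held 1 array far from the other 4, where chance gives about 3.5. Genes named only as a neighbour, as an end of the interval or from a list by function were not examined. In L*er*, AT1G01230 was read at 8.01 in replicate 1 (8.60 to 8.78 in the others), AT1G02260 at 6.49 in replicate 4 (7.01 to 7.20) and AT1G04480 at 11.16 in replicate 2 (11.79 to 11.86). In NILDOG1, BXL2 was read at 6.49 in replicate 4 (4.38 to 4.98), AT1G04430 at 5.18 in replicate 3 (5.61 to 5.76) and AT1G05575 at 3.49 in replicate 4 (2.91 to 2.97). The NILDOG2 values of AT1G02260 (5.53 to 5.69) and AT1G05575 (4.31 to 4.67) lay outside these arrays too, and those of AT1G01230 (9.30 to 9.57) lay above all L*er* arrays.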

How the results depend on the processing

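Recomputed under the alternatives were 14 tested differences and those of 16 members in NILDOG2. These 16 were the 8 largest rises and 8 largest falls without overlap, not the 16 past the looser threshold. None of the differences changed sign. For the 16, leaving out arrays could not change it, since all their NILDOG2 arrays lay on one side of all L*er* arrays. The other differences given were not recomputed. The 6 calls in NILDOG2 became 12 at an adjusted p under 0.01, 16 at 0.05, 2 with NILDOG2 and L*er* alone, and 2 to 7 when arrays were left out in turn (2 without NILDOG2 replicate 1, 2 or 3, and 3 without L*er* replicate 3 or 5). The counts of 0 became 2 in NILDOG1 at 0.05, 4 and 9 in NILDOG3 at 0.01 and 0.05, 8 in NILDOG6 at 0.05, 6 and 15 in the F test, and 1 and 7 between the replicate sets, and remained 0 with each array left out. Other scalings, filters and weights left 5 to 8 calls in NILDOG2. Shares of all genes under the other scalings, filters, weights and left-out arrays are not given beside these counts. The median absolute difference of the members became 0.13 in NILDOG1, 0.23 in NILDOG3 and 0.20 in NILDOG6 with centred arrays. With the low filter it became 0.19 in NILDOG2 and 0.18 in NILDOG3, and with replicates 1 to 3 it became 0.17 in NILDOG2. Leaving out arrays gave 0.10 to 0.13 in NILDOG1, 0.14 to 0.18 in NILDOG2, 0.16 to 0.19 in NILDOG3 and 0.15 to 0.19 in NILDOG6. The cause was not tested.

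Plants were grown in complete blocks, but no label ties the replicate numbers to them, and the deviations of arrays with one number correlated by -0.2952 to 0.3727, so the numbers were not taken to pair the samples. With the replicate number as a block, 5 members were called in NILDOG2 and 0 in each other line, the median absolute difference was 0.17 in NILDOG2 and 0.18 in NILDOG3, and the looser threshold gave 4, 21, 14 and 25 members in NILDOG1, NILDOG2, NILDOG3 and NILDOG6. The shares of all genes with this block are not given, so the counts are not set against the whole table.

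With arrays left out in turn, the looser counts of the tested lines ran from 0 to 8 in NILDOG1 (8 without L*er* replicate 2), from 5 to 38 in NILDOG3 (38 without L*er* replicate 2), and from 0 to 32 in NILDOG6 (32 without its replicate 1). The looser count of the F test ran from 10 to 34 and was 25 without NILDOG6 replicate 1. Array weights gave 5 members in NILDOG1, 25 in NILDOG2 and 39 in NILDOG3, and centred arrays 17 in NILDOG3 and 14 in NILDOG6. Shares of all genes under these settings are not given, except for NILDOG6 without replicate 1 (8.44% of members against 8.39% of all genes). Whether these counts changed more than those of all genes was not tested. In NILDOG6, AT1G03250 lost its call in 12 of 27 alternatives (adjusted p from 0.0276 to 0.184), AT1G01300 in 7 (0.00376 to 0.209), SCAMP4 in 6 (0.0104 to 0.162), and AT1G02080 and Sadhu4-2 in 3 each (0.00886 to 0.139 and 0.00258 to 0.137). AT1G03920 lost it in 8 of 26 (0.0025 to 0.212). In the other lines, TUA4 in NILDOG1 and NILDOG3, PDLP2 in NILDOG1 and PDIL2-2 in NILDOG3 also lost their calls with replicates 1 to 3 alone, and PDLP2 in NILDOG1 and AT1G04300 in NILDOG3 with the line and L*er* alone.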
